A study of Mus musculus with 13 samples.

Results

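The genes of voltage-gated calcium and sodium channels were examined in whole hippocampus of mice with 1 trapped copy of Kmt2d. A gene was a member if its platform symbol starts with Cacn, or with Scn and a digit, and if a probe set on the array carries that symbol alone. This gave 35 members out of 19938 genes that meet the same condition on the probe set, 24 calcium and 11 sodium channel genes. They comprise 10 calcium channel α1 genes, 4 α2δ genes, 3 β genes, 7 γ genes, 8 sodium channel α genes and 3 sodium channel β genes. Where a gene had several probe sets, the one with the highest mean over all 13 arrays stood for it.

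All mice were of the C57BL/6J strain, 1 to 2 months old and fed a standard diet. Experiment 1 held 4 wild-type and 3 heterozygous Kmt2d+/βGeo mice that were given no injections. Experiment 2 held 3 wild-type and 3 Kmt2d+/βGeo mice that all received 3 saline injections per day. The labels give the sex as female throughout, apart from wild-type mouse 3 of experiment 1, for which it is unknown. Kmt2d encodes a methyltransferase for lysine 4 of histone H3, βGeo denotes a gene-trap cassette, and the allele is carried by all cells of the animal. Values are log2 intensities of probe sets on Mouse Gene ST arrays, so 1 unit is a doubling. Differences are taken within the same probe set. Means of different probe sets serve only to choose among them and to sort them roughly as dim or bright.

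Voltage-gated calcium channels admit calcium when the membrane depolarises, and couple firing to transmitter release, dendritic signalling and gene regulation. Each has a pore-forming α1 subunit, and the channels of the high-voltage-activated class also carry an α2δ subunit, which promotes surface delivery, and a cytoplasmic β subunit. Most brain proteins named γ act chiefly as auxiliary subunits of AMPA-type glutamate receptors. Sodium channel α subunits form the pore that carries the rising phase of the action potential, and the small β subunits modulate gating and placement. In the hippocampus these channels set the excitability of granule and pyramidal cells and of inhibitory neurons.

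The arrays differed more between the experiments than between genotypes. Medians over all probe sets ranged from 6.74 to 6.90 on the arrays of experiment 1 and from 7.04 to 7.08 on those of experiment 2. Correlations ranged from 0.991 to 0.998 within experiment 1, from 0.985 to 0.994 within experiment 2, and from 0.936 to 0.958 across them. The hippocampal markers Prox1 (granule cells), Wfs1 (CA1) and Grik4 (CA3) averaged 9.41, 10.44 and 9.71 log2 units. Kmt2d has 2 probe sets. Heterozygous minus wild type over both experiments was -0.53 ± 0.08 (SE) on 10432294 (limma, adjusted p = 0.427 over all probe sets) and 0.07 ± 0.07 (SE) on 10432298 (adjusted p = 0.989). Where these probe sets lie relative to the cassette is unknown here, so neither checks the genotype labels. Wild-type mouse 2 of experiment 1 stood apart in striatal markers. The mean of the 8 measured markers, relative to each gene's mean over all arrays, was 2.62 in that mouse and -0.04 to 0.003 in the other wild-type mice of experiment 1. In whole tissue, fewer cells of a type and less RNA per cell cannot be told apart.

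Promoter windows of 3 members are shown because the genotypes did not overlap in 1 experiment and RefSeq lists a single window for each. Each window runs from 250 bases before to 50 bases after the RefSeq transcript start (GRCm38.p6), is written in the direction of transcription, and has CG dinucleotides in capitals.
Cacna2d2 (chr9:107399630-107399929, + strand): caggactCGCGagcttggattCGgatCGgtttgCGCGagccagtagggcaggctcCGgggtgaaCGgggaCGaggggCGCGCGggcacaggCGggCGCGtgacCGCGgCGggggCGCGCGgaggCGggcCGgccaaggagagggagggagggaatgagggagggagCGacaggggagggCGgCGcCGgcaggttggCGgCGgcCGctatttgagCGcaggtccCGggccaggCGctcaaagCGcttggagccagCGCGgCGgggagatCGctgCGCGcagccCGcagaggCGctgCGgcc
Cacna1b (chr2:24763103-24763402, - strand): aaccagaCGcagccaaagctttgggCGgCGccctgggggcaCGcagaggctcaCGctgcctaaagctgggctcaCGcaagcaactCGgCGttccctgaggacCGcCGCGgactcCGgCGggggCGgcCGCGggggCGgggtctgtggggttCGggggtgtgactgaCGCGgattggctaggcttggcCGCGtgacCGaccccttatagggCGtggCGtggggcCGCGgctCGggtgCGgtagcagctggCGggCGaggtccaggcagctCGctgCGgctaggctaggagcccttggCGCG
Scn11a (chr9:119825407-119825706, - strand): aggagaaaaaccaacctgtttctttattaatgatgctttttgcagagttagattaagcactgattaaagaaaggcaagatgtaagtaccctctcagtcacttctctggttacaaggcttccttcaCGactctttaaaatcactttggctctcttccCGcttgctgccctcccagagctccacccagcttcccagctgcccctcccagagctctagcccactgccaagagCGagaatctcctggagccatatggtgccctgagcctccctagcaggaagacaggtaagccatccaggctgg
These windows hold 43, 35 and 3 CG dinucleotides. Over all 32851 RefSeq windows of this length the median was 7, and over the 37 windows found for 27 of the members it was 11, with a range of 2 to 63. The letters GGGCGG or their complement CCGCCC occurred in 14 of the 37 member windows (37.8%) and in 35.7% of all windows. Each GGGCGG also holds a CG. The letters TATAAA or TTTATA occurred in 2 member windows (5.41%) and in 13.6% of all windows. The counts describe letters in these windows only.

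No member passed the threshold for genotype over both experiments. The threshold was a Benjamini-Hochberg adjusted p of 0.05 over all 19938 genes in limma, with genotype and experiment as terms. The share of all genes called was 0%, so the members' count of 0 of 35 does not set them apart. At an unadjusted p under 0.05 there were 2 members (5.71%), against 5.25% of all genes. One, Scn3b, was higher in heterozygous mice, as were 2.64% of all genes, and 1, Cacna2d2, was lower, as were 2.61%. The difference between genotypes was above 0 for 17 members (51% of all genes) and below 0 for 18 (49% of all genes). Its median was -0.003 log2 units, beside 0.002 over all genes. Medians by class were 0.04 for calcium α1, -0.08 for α2δ, -0.05 for calcium β, -0.01 for γ, -0.05 for sodium α and 0.14 for sodium β genes. The genotype difference had the same sign in both experiments for 20 members (57.1%) and for 48.2% of all genes.

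**Figure D1:**
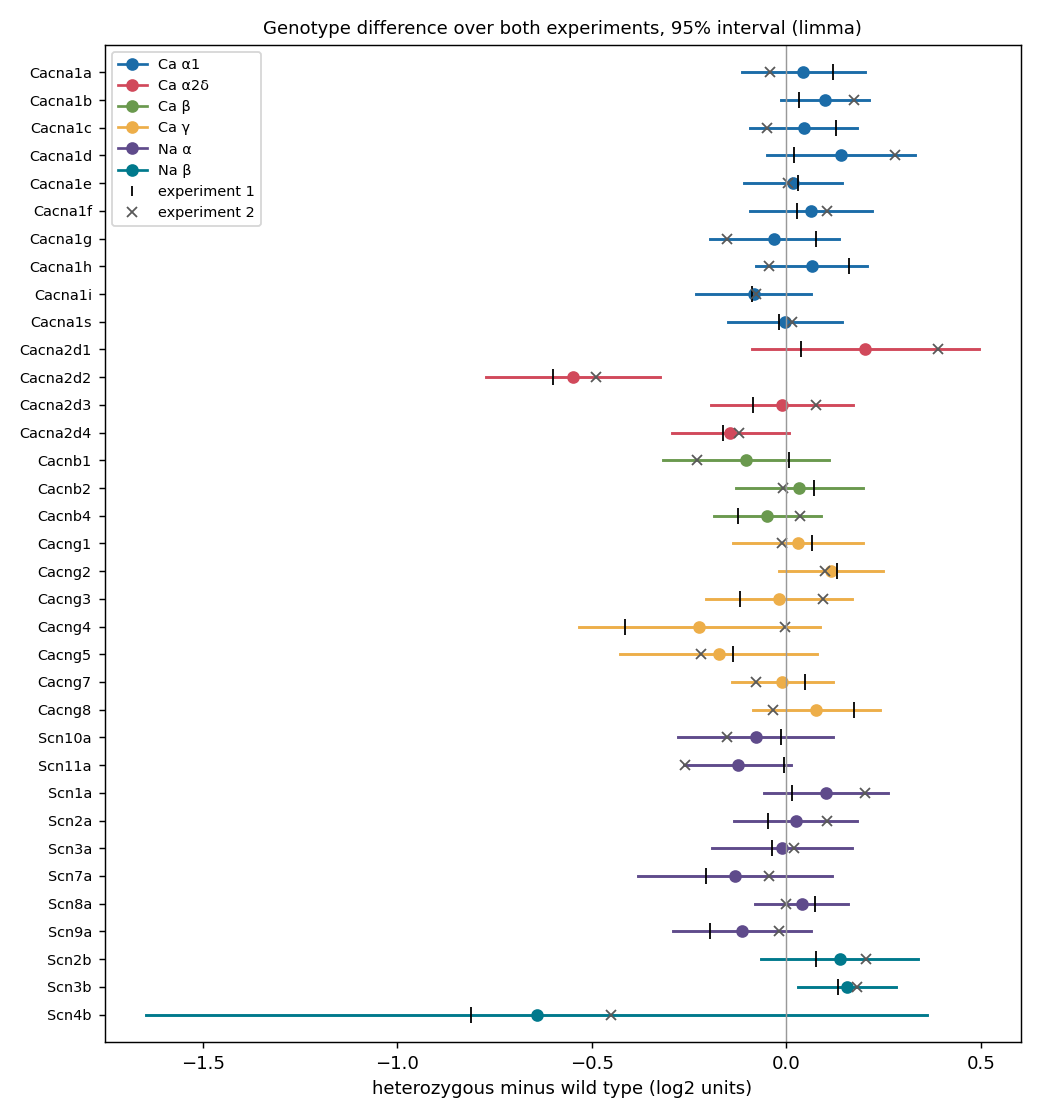
Heterozygous minus wild type for the 35 members in log2 units, coloured by subunit class, with the estimate over both experiments (circle) and its 95% interval from limma, and the estimates in experiment 1 (vertical tick) and experiment 2 (cross). The intervals of 33 members include 0, that of Cacna2d2 runs from -0.77 to -0.32, that of Scn3b from 0.03 to 0.28, and that of Scn4b is the widest.

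Among the pore-forming calcium channel genes, 7 of 10 were above 0 and 3 below, all of them within 0.14 log2 units. Cacna1b encodes the N-type channel of presynaptic terminals. Its values in experiment 2 were 9.70, 9.67 and 9.73 in wild-type mice and 9.87, 9.90 and 9.85 in heterozygous mice. All heterozygous mice lay above all wild-type mice there. In experiment 1 the wild-type mice were at 10.30, 10.17, 10.30 and 10.36 and the heterozygous mice at 10.30, 10.31 and 10.32, which overlap. The difference was 0.17 ± 0.08 (SE) in experiment 2 (limma, unadjusted p = 0.036, adjusted p = 0.453) and 0.10 ± 0.05 over both experiments (adjusted p = 0.934).

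Cacna1d, encoding an L-type channel that opens at comparatively low voltage, was 0.28 ± 0.13 (SE) higher in heterozygous mice of experiment 2 (limma, unadjusted p = 0.043, adjusted p = 0.469). The groups overlapped, with wild-type values of 8.91, 8.39 and 8.66 and heterozygous mice at 8.65, 9.06 and 9.08. In experiment 1 the 4 wild-type mice lay between 8.89 and 8.90 and the heterozygous mice at 8.90, 8.90 and 8.95. Cacna1c encodes the main L-type channel of hippocampal neurons. In experiment 1 its values were 9.84, 9.99, 9.97 and 10.07 in wild-type mice and 10.08, 10.08 and 10.13 in heterozygous mice, which do not overlap. The difference there was 0.13 ± 0.09 (SE; adjusted p = 1), and in experiment 2, where the groups overlapped, it was -0.05 ± 0.09.

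The P/Q-type gene Cacna1a, which serves fast transmitter release, differed by 0.04 ± 0.07 (SE) over both experiments. The R-type gene Cacna1e differed by 0.02 ± 0.06. Of the T-type genes, whose channels open near the resting potential and support burst firing, Cacna1g differed by -0.03 ± 0.08, Cacna1h by 0.06 ± 0.07 and Cacna1i by -0.08 ± 0.07. Cacna1h was 0.16 ± 0.09 higher in heterozygous mice of experiment 1, and the difference was -0.05 ± 0.09 in experiment 2. For Cacna1g the differences were 0.08 ± 0.10 and -0.15 ± 0.11. For neither gene did the change in effect from experiment 1 to experiment 2 pass in limma (adjusted p = 0.778 for Cacna1h and 0.779 for Cacna1g). Cacna1f, the L-type gene of photoreceptor synapses, and Cacna1s, that of skeletal muscle, had low means of 5.67 and 6.37 on their probe sets and differed by 0.06 ± 0.07 and -0.003 ± 0.07.

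The α2δ gene Cacna2d2 had the lowest limma p of the members over both experiments. It encodes an auxiliary subunit of high-voltage-activated channels, and its loss in mice causes ataxia and absence-type seizures. In experiment 1 wild-type values were 9.66, 9.60, 9.75 and 9.33, and heterozygous values were 9.01, 9.05 and 8.90. Every heterozygous mouse lay below every wild-type mouse, with means of 8.99 ± 0.08 (SD, n = 3) and 9.59 ± 0.18 (SD, n = 4). In experiment 2 wild-type values were 9.09, 9.56 and 9.42, and heterozygous values were 9.18, 8.91 and 8.50. There the groups overlapped through wild-type mouse 1 and heterozygous mouse 1.

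The Cacna2d2 difference over both experiments was -0.55 ± 0.11 (SE), a level 1.46-fold lower in heterozygous mice. It did not pass over all genes (limma, unadjusted p = 8.79e-05, adjusted p = 0.292). An exact two-sided permutation of genotype within experiments gave p = 0.00571, of a smallest possible 0.00143, and did not pass over all genes (adjusted p = 0.85). The difference was -0.60 ± 0.15 in experiment 1 (adjusted p = 0.44) and -0.49 ± 0.16 in experiment 2 (adjusted p = 0.372), and -0.31 there without heterozygous mouse 3. The difference between these 2 effects was 0.11 ± 0.22 and did not pass (adjusted p = 0.931). With array weights in the fit the gene passed, over both experiments at -0.50 (adjusted p = 0.0338) and in experiment 1 at -0.55 (adjusted p = 0.0181). The same fit called 21 of all genes over both experiments (0.105%, 18 of them lower) and 163 in experiment 1 (0.818%, 148 of them lower). Over the 22 settings other than array weights the adjusted p over both experiments ranged from 0.0689 to 0.827 and did not pass, and the difference ranged from -0.62 to -0.41.

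Markers of the septum and of cholinergic neurons shared with Cacna2d2 the direction of the genotype difference, though not the order of single mice. All 8 of the list were measured, and all 8 had a difference below 0 (49% of all genes), with a median of -0.37. At an unadjusted p under 0.05 in limma there were 5 (Zic1, Ecel1, Slc10a4, Slc18a3 and Ngfr), against 2.61% of all genes lower. None passed after adjustment. The lists were chosen with earlier results of these data known, so their counts are not an independent test. The mean of the list, relative to each gene's mean over all arrays, was 0.11 to 0.68 in wild-type and -0.19 to -0.17 in heterozygous mice of experiment 1. It was -0.08 to 0.09 in wild-type and -0.49 to -0.23 in heterozygous mice of experiment 2. None of these markers was at 0, since array values have no zero. Of 10 inhibitory neuron markers, 4 were lower and 1 higher at an unadjusted p under 0.05 (2.61% and 2.64% of all genes). The list's median was -0.07. All 8 measured striatal markers were below 0, with a median of -0.44 and 0 at an unadjusted p under 0.05. The striatal median was -0.73 in experiment 1, which holds wild-type mouse 2, and -0.08 in experiment 2. Lists of other cell types also leaned lower. Of 9 choroid plexus markers 8 were below 0 and 1 above, with a median of -0.25. Their median was -1.03 in experiment 1 and 0.49 in experiment 2. Of 7 measured oligodendrocyte markers 6 were below 0 and 1 above, with a median of -0.03. The part of these lists in the Cacna2d2 difference was not tested.

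**Figure D2:**
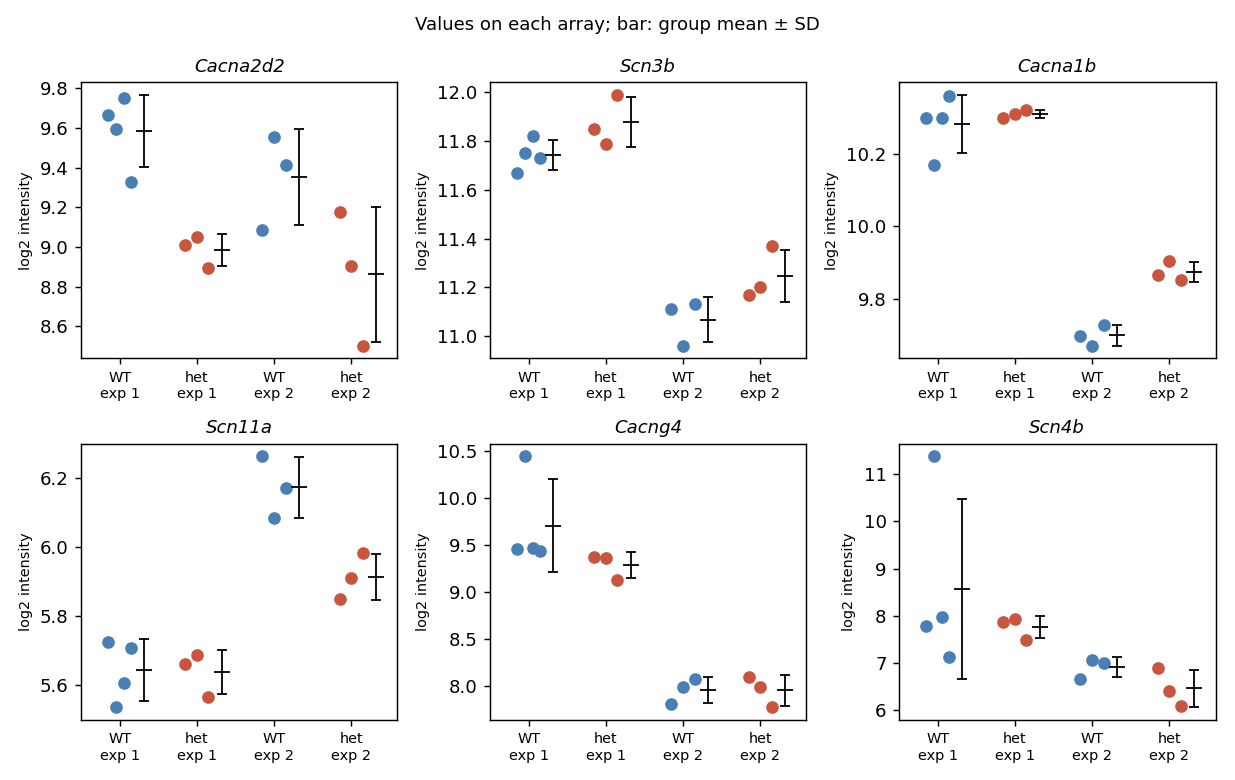
Log2 intensity of 6 members on each of the 13 arrays, by genotype (WT wild type, het heterozygous) and experiment, with the group mean ± SD to the right of the points. Cacna2d2 lies lower in the heterozygous mice of experiment 1 without overlap, Scn3b, Cacna1b and Scn11a are separate by genotype in experiment 2, and wild-type mouse 2 of experiment 1 is far above its group for Cacng4 and Scn4b.

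The other α2δ genes differed by less than Cacna2d2. Cacna2d1, which encodes a target of gabapentin, was 0.20 ± 0.14 (SE) above wild type over both experiments (limma, adjusted p = 0.934). Its heterozygous values in experiment 2 were 9.03, 9.65 and 9.73 against 9.51, 8.56 and 9.16 in wild-type mice, which overlap. Cacna2d3 differed by -0.01 ± 0.09. Cacna2d4, best known from photoreceptors, was 0.14 ± 0.07 lower (unadjusted p = 0.0581, adjusted p = 0.934), with overlap in both experiments.

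No calcium channel β gene had an unadjusted p under 0.05. Cacnb1 differed by -0.10 ± 0.10 (SE), Cacnb2 by 0.03 ± 0.08 and Cacnb4, a gene whose loss causes the lethargic mouse phenotype, by -0.05 ± 0.07. For each of the 3 genes the differences in the 2 experiments had opposite signs. Cacnb4 was -0.12 ± 0.09 in experiment 1 and 0.03 ± 0.09 in experiment 2.

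Of the 7 γ genes, 3 were above 0 and 4 below. Cacng4, an AMPA receptor auxiliary subunit, was at 9.46, 10.44, 9.47 and 9.44 in wild-type mice of experiment 1 and at 9.37, 9.36 and 9.13 in heterozygous mice. The groups did not overlap, and wild-type mouse 2 was about a unit above its group. The difference was -0.42 ± 0.19 (SE; limma, unadjusted p = 0.0478, adjusted p = 1), and -0.17 without that mouse. In experiment 2 the difference was -0.004 ± 0.21, with all 6 mice between 7.77 and 8.10.

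Cacng2 (stargazin), which brings AMPA receptors to the synapse, was 0.12 ± 0.06 (SE) higher over both experiments (limma, unadjusted p = 0.0849, adjusted p = 0.934). Its values overlapped in experiment 1, at 10.45, 10.63, 10.50 and 10.40 against 10.60, 10.68 and 10.60, and in experiment 2. Its other probe set gave 0.09 ± 0.09. Cacng8, the γ-8 subunit that is abundant in hippocampus, differed by 0.17 ± 0.10 in experiment 1 and -0.03 ± 0.11 in experiment 2. The related Cacng3 differed over both experiments by -0.02 ± 0.09, Cacng5 by -0.17 ± 0.12 and Cacng7 by -0.01 ± 0.06. Cacng1, the γ subunit of the skeletal muscle channel, differed by 0.03 ± 0.08.

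Among sodium channel α genes 3 were above 0 and 5 below, with none at an unadjusted p under 0.05 over both experiments. Scn2a, whose channel is placed at axon initial segments of excitatory neurons, was at 12.60, 12.46, 12.38 and 12.59 in wild-type and 12.31, 12.56 and 12.51 in heterozygous mice of experiment 1. In experiment 2 it was at 11.74, 11.79 and 11.93 in wild-type and 11.73, 11.91 and 12.13 in heterozygous mice. The groups overlapped in both, and the difference was 0.02 ± 0.08 (SE). Its 14 probe sets gave genotype differences of -0.02 to 0.10.

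Scn8a, the main sodium channel of mature axon initial segments and nodes, differed by 0.04 ± 0.06 (SE). Scn1a, which matters most for inhibitory neurons, differed by 0.10 ± 0.08, and in experiment 2 by 0.20 ± 0.11 (limma, unadjusted p = 0.0794, adjusted p = 0.533). A probe set shared by Scn3a and Scn1a, 10483215, was not used for either gene. It went the other way, at -0.07 ± 0.08 over both experiments and -0.17 ± 0.12 in experiment 2. Scn3a, most abundant before birth, differed by -0.01 ± 0.09. Scn7a, the sodium-sensing relative, differed by -0.13 ± 0.12. The genes known chiefly from peripheral sensory neurons had low means of 6.46 for Scn9a, 5.22 for Scn10a and 5.83 for Scn11a. Scn9a was 0.20 ± 0.11 lower in experiment 1 and 0.02 ± 0.12 lower in experiment 2, and Scn10a differed by -0.08 ± 0.09 over both.

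Scn11a was the only member with an unadjusted p under 0.05 for the difference between the genotype effects of the 2 experiments (1 of 35, against 6.53% of all genes). In experiment 2 wild-type values were 6.26, 6.09 and 6.17, and heterozygous values were 5.85, 5.91 and 5.98, without overlap. In experiment 1 they were at 5.72, 5.53, 5.61 and 5.71 and at 5.66, 5.69 and 5.56, with overlap. The difference was -0.26 ± 0.09 (SE) in experiment 2 (limma, unadjusted p = 0.00787, adjusted p = 0.379) and -0.01 ± 0.08 in experiment 1. The interaction was -0.25 ± 0.12 (unadjusted p = 0.0451, adjusted p = 0.761). For its neighbour on chromosome 9, Scn10a, the differences were -0.15 ± 0.14 in experiment 2 and -0.01 ± 0.13 in experiment 1.

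Of the sodium channel β genes, Scn3b was higher in heterozygous mice. It encodes a non-covalently attached subunit of central neurons. In experiment 1 wild-type values were 11.67, 11.75, 11.82 and 11.73, and heterozygous values were 11.85, 11.79 and 11.99, which overlap between wild-type mouse 3 and heterozygous mouse 2. In experiment 2 they were at 11.11, 10.96 and 11.13 and at 11.17, 11.20 and 11.37, which do not overlap. Over both experiments the difference was 0.16 ± 0.06 (SE), or 1.11-fold, and did not pass (limma, unadjusted p = 0.019, adjusted p = 0.833). The exact permutation gave p = 0.00429, the lowest of the 35 members, and 0.00571 for Cacna2d2 (adjusted p = 0.85 for each). Of CA3 markers, 5 of 5 differences were above 0 (51% of all genes), with a median of 0.12. Of dentate granule cell markers, 8 of 9 were, with a median of 0.18. Of the measured CA1 markers, 0 of 4 were, with a median of -0.10. Medians in experiments 1 and 2 were 0.24 and 0.12 for CA3, 0.43 and 0.02 for granule cells and -0.05 and -0.14 for CA1. Unadjusted p was under 0.05 for Trhde and Grik4 of the first list and Trpc6 of the second, all higher, as were 2.64% of all genes. None passed after adjustment. All 6 astrocyte markers were above 0 as well, with a median of 0.08, and Aqp4 had an unadjusted p of 0.0416 (limma, adjusted p = 0.934). The part of these lists in the Scn3b difference was not tested.

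Scn2b, encoding a disulphide-linked β subunit, differed by 0.14 ± 0.10 (SE) over both experiments (limma, adjusted p = 0.934). Scn4b, another disulphide-linked subunit that is abundant in striatum, was at 7.79, 11.38, 7.98 and 7.14 in wild-type and 7.87, 7.93 and 7.49 in heterozygous mice of experiment 1. Only wild-type mouse 2, the mouse with high striatal markers, stood out. In experiment 2 wild-type values were 6.67, 7.08 and 6.998, and heterozygous values were 6.89, 6.41 and 6.10, with overlap. The difference was -0.64 ± 0.47 (adjusted p = 0.934) with all mice and -0.16 without that mouse. Scn4b and Scn2b are neighbours on chromosome 9, and Scn2b was at 10.76 in the same mouse, within its group's 10.69 to 10.87.

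Within single experiments, again, no member passed. In experiment 1, where 0.0201% of all genes passed, 2 members (5.71%) had an unadjusted p under 0.05, against 3.5% of all genes. Genotypes did not overlap for 3 members there (Cacna1c higher, Cacna2d2 and Cacng4 lower in heterozygous mice), or 8.57% against 7.22% of all genes. By direction, 4.47% of all genes were higher without overlap and 2.75% lower. In experiment 2 no gene passed (0%), 4 members (11.4%) had an unadjusted p under 0.05, against 10.2%, and genotypes did not overlap for 3 members (Cacna1b and Scn3b higher, Scn11a lower), or 8.57% against 9.48%. By direction, 4.32% of all genes were higher without overlap and 5.17% lower. No member was free of overlap in both experiments, while 0.321% of all genes were so with the same direction in both. For the difference of the genotype effects the share passing was also 0%, and 0 members passed. The smallest exact p is 0.0286 for 3 against 4 mice and 0.1 for 3 against 3, so an exact test within experiment 2 cannot reach 0.05. The members varied among replicates as other genes did, with a median SD within groups of 0.136, beside 0.137 over all genes.

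Proteins that bind, place or act downstream of these channels were examined through 7 lists with 43 measured genes of 46. They covered scaffolds of the axon initial segment and node, intracellular FGFs, calcium sensors and small GTPases, presynaptic tethers, ubiquitin ligases, the sodium leak channel complex and effectors of calcium entry. None passed for genotype over both experiments, with 25 above 0 and 18 below. At an unadjusted p under 0.05 there was 1 higher, Fgf13, which binds the tails of sodium channels, at 0.19 ± 0.06 (SE; limma, adjusted p = 0.795). There was 1 lower, Camk2d, a calcium- and calmodulin-dependent kinase, at -0.35 ± 0.16 (adjusted p = 0.934).

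The members differed far more between the experiments than between genotypes. Of the 35, 26 passed for experiment 2 minus experiment 1 with genotype as a term, or 74.3% beside 77.2% of all genes. In all, 18 members fell (51.4%, against 35.4% of all genes) and 8 rose (22.9%, against 41.8%). The median difference was -0.27 log2 units for members and 0.07 for all genes. The injections differ between the experiments, which the design text describes as separate array experiments. The injections, the arrays and any separate normalisation cannot be told apart.

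The direction depends partly on scaling. The median of all genes was 0.07 in the deposited values, -0.18 after each array was centred on its median and -0.05 after quantile normalisation of all arrays. Over these scalings the members counted 18 lower and 8 higher, 22 lower and 3 higher, and 17 lower and 9 higher. The share of calls that were higher was 30.8%, 12% and 34.6% for members and 54.2%, 28.3% and 41% for all genes. Under all 3 scalings 16 members fell (45.7%, against 29.7% of all genes) and 3 rose (8.57%, against 15.9%), and the other 16 depended on the scaling or did not pass. The difference also followed signal strength. With all genes cut by mean signal into 4 bins of equal size, the brightest had a median of -0.41 and the dimmest of 0.26. The brightest bin held 20 of the 35 members, with a median of -0.57. Of those 20, 12 fell (60%), against 65.5% of all genes in that bin.

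**Figure D3:**
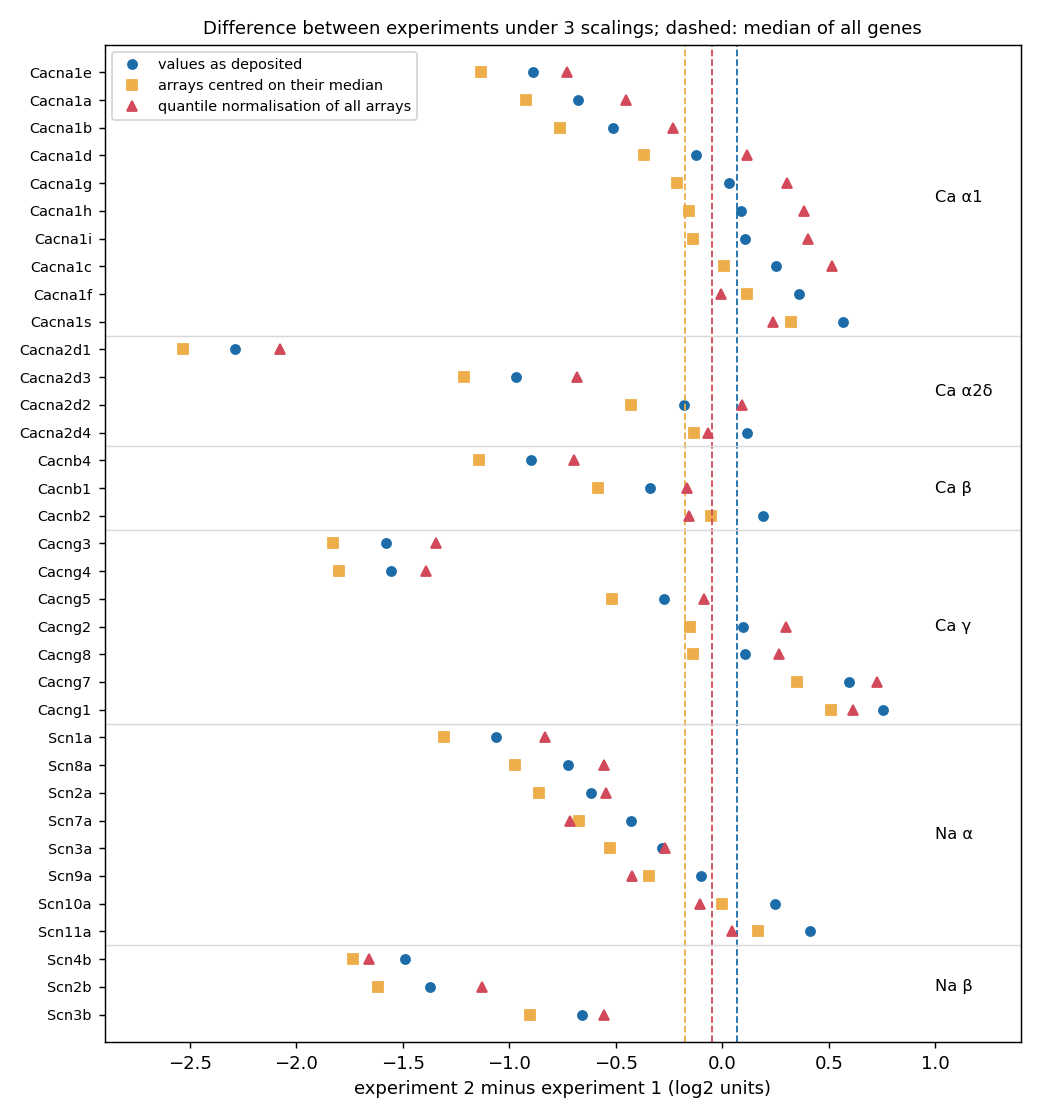
Experiment 2 minus experiment 1 in log2 units for the 35 members by subunit class, in the deposited values (circles), after centring each array on its median (squares) and after quantile normalisation of all arrays (triangles), with the median of all genes for each as a dashed line. Cacna2d1, Cacng3, Cacng4, Scn4b and Scn2b lie furthest below 0 under each scaling, while Cacna1s, Cacng1 and Cacng7 stay above 0.

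The sodium channel genes accounted for 8 of the 16 that fell under all 3 scalings, namely Scn1a, Scn2a, Scn3a, Scn7a, Scn8a and all 3 β genes. Scn2b went from 10.87, 10.76, 10.69 and 10.70 in wild-type and 10.84, 10.81 and 10.85 in heterozygous mice of experiment 1 to 9.14, 9.34 and 9.48 and 9.22, 9.42 and 9.94 in experiment 2. All mice of experiment 2 lay below all of experiment 1, at a difference of -1.37 ± 0.10 (SE; limma, adjusted p = 1.56e-09). Scn1a differed by -1.06 ± 0.08 (adjusted p = 1.92e-09), Scn8a by -0.73 ± 0.06, Scn3b by -0.66 ± 0.06 and Scn2a by -0.62 ± 0.08. Scn4b differed by -1.49 ± 0.47 (adjusted p = 0.00915), and by -1.01 without wild-type mouse 2 of experiment 1. In heterozygous mice alone it did not pass, at -1.30 (adjusted p = 0.123). Scn11a was 0.41 ± 0.06 higher as deposited (adjusted p = 2.44e-05) and 0.05 after quantile normalisation, where it did not pass.

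Among calcium channel genes the largest difference was that of Cacna2d1. It was at 11.62, 11.43, 11.53 and 11.54 in wild-type and 11.59, 11.52 and 11.60 in heterozygous mice of experiment 1. In experiment 2 it was at 9.51, 8.56 and 9.16 in wild-type and 9.03, 9.65 and 9.73 in heterozygous mice, all below experiment 1 and more spread. The difference was -2.29 ± 0.14 (SE; limma, adjusted p = 2.57e-10), while its other probe set, 10519815, gave -0.74 ± 0.09. Both probe sets fell, by unequal amounts.

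The AMPA receptor subunits of the γ class split. Cacng3 fell by 1.58 ± 0.09 log2 units (SE; limma, adjusted p = 1.07e-10) and Cacng4 by 1.56 ± 0.15 (adjusted p = 6.54e-08). Cacng7 rose by 0.59 ± 0.06 (adjusted p = 2.06e-07), from 10.73 to 10.86 over the 7 mice of experiment 1 to 11.27 to 11.56 over the 6 of experiment 2, without overlap. Cacng2 and Cacng8 differed by 0.10 ± 0.06 and 0.11 ± 0.08 and did not pass as deposited, while they were at -0.15 and -0.14 after centring and at 0.30 and 0.26 after quantile normalisation. For Cacng2 the other probe set, 10430282, gave -0.63 ± 0.09. Cacng1, Cacng4 and Cacng5 are neighbours on chromosome 11 and differed by 0.76 ± 0.08, -1.56 ± 0.15 and -0.27 ± 0.12.

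Of the pore-forming calcium channel genes, the presynaptic and R-type genes fell under all 3 scalings. Cacna1e differed by -0.89 ± 0.06 (SE; limma, adjusted p = 1.03e-09), Cacna1a by -0.68 ± 0.07 and Cacna1b by -0.52 ± 0.05. The L-type gene Cacna1c rose by 0.25 ± 0.06 as deposited (adjusted p = 0.00209) and was at 0.01 after centring. The T-type genes Cacna1g, Cacna1h and Cacna1i did not pass as deposited, at 0.03 ± 0.08, 0.09 ± 0.07 and 0.11 ± 0.07, and turned sign with the scaling, from -0.21, -0.16 and -0.14 after centring to 0.30, 0.38 and 0.40 after quantile normalisation. Cacnb4 fell by 0.90 ± 0.07 and Cacna2d3 by 0.97 ± 0.09, under all 3 scalings. Cacna2d2 differed by -0.18 ± 0.11 as deposited (adjusted p = 0.125), -0.43 after centring and 0.09 after quantile normalisation. Cacnb1 fell by 0.34 ± 0.10 as deposited (adjusted p = 0.00596), and was at -0.58 and -0.17 under the other scalings. Cacna1f was 0.36 ± 0.07 higher as deposited, and the difference was -0.01 after quantile normalisation.

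The skeletal muscle channel genes Cacna1s and Cacng1 rose under all 3 scalings, by 0.57 ± 0.07 (SE; limma, adjusted p = 1.42e-06) and 0.76 ± 0.08 (adjusted p = 2.51e-07). In the deposited values, 5 of 8 muscle markers rose and none fell, at a list median of 0.25. Of the 4 signal bins, the 2 dimmest held 7 of these 8 markers, and 67.9% and 56.6% of all genes in them rose. All 6 astrocyte markers fell, at a median of -0.88. Of neuron markers, 4 of 5 fell for CA3 (median -0.92), 7 of 9 for dentate granule cells (median -0.66) and 2 of 4 for CA1 (median -0.26). Of 10 inhibitory neuron markers 6 fell and 2 rose (median -0.41). Of the 43 channel partner genes 37 fell and 2 rose, against 35.4% and 41.8% of all genes. Most of these partner genes, and most astrocyte and CA3 markers, lay in the brightest bin. In that bin 65.5% of all genes fell and 17.9% rose. The part of signal strength and of these markers in the members' differences was not tested.

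The 14 probe sets of Scn2a gave unlike values for the difference between the experiments. Experiment 2 minus experiment 1 ranged from -1.75 to 0.34 over them, with 12 below 0, a median of -0.80 and mean signals of 9.24 to 12.20. The genotype difference over the same probe sets ranged only from -0.02 to 0.10. A further probe set shared by Scn9a and Scn3a, 10472374, was not used for either gene. Its mean was 11.04, and experiment 2 minus experiment 1 was -0.06 ± 0.06 (SE), beside -0.28 ± 0.09 on the Scn3a probe set used. Another, 10472372, shared by Scn2a, Scn9a and Scn3a, gave -0.22 ± 0.14. For Scn9a the probe set used gave -0.10 ± 0.08, and its other one, 10483324, gave -0.30 ± 0.09 at a mean of 4.67.

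**Figure D4:**
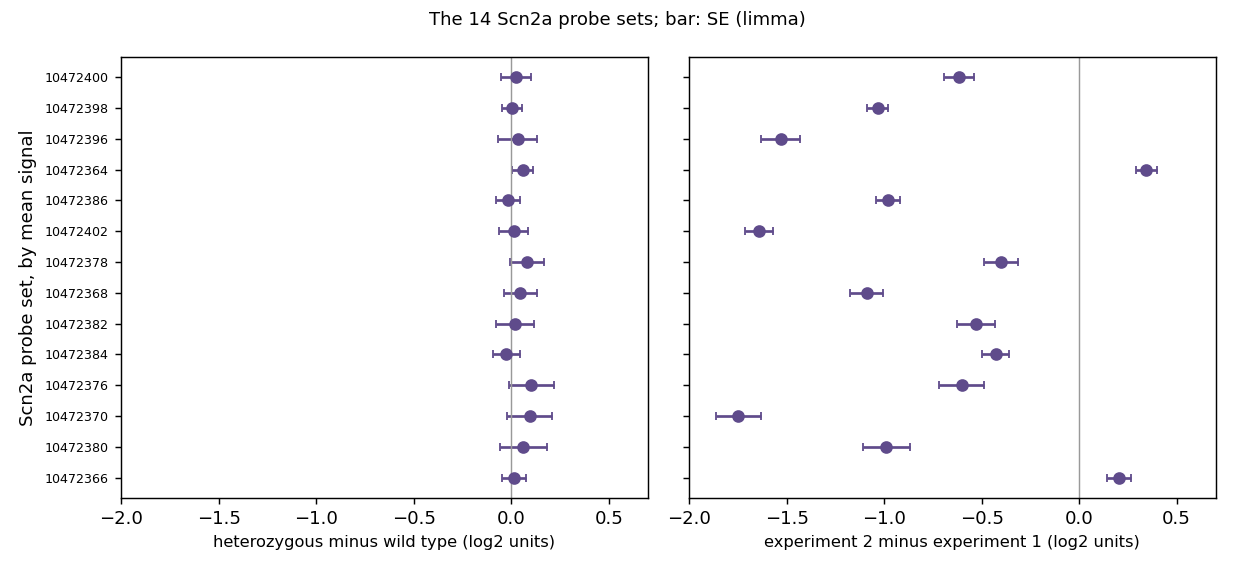
Heterozygous minus wild type (left) and experiment 2 minus experiment 1 (right) in log2 units for the 14 probe sets of Scn2a, ordered by mean signal with the brightest at the top, with the SE from limma. The genotype differences lie between -0.02 and 0.10, and the experiment differences between -1.75 and 0.34.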

How the data were processed

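The deposited values are log2 intensities, for which the submitters' processing notes name RMA and oligo. RMA subtracts background, forces arrays to a common distribution and summarises probes by median polish, which can return equal values on several arrays. For software versions, the build and joint or separate normalisation of the 13 arrays, nothing is stated in the sources used here. In all 35556 probe sets have values, from 2.53 to 14.1. The platform annotation supplied with the data gives 21789 of them 1 symbol and 1621 several. One probe set per gene, that of highest mean, gave 19938 genes, and it was a choice among several for 999.

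Tests used limma 3.58.1 (lmFit, eBayes) in R 4.3.3, with statmod 1.5.0, on all 4 groups, with two-sided p-values adjusted by the Benjamini-Hochberg method over all genes. A model with terms for genotype and experiment gave both overall contrasts, and a model of the 4 groups gave the effects within experiments and the interaction. Single genes were also tested by exact permutation of genotype within experiments (700 regroupings). The scripts were tested on simulated data. Per the labels each array is a separate mouse, and the number of mice limits the precision.

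The genes and lists were chosen with earlier results of these data known. Members given with values were fixed by name, by lowest p per class and contrast, or by largest experiment difference, and the rest are summarised. The alternatives tried were every probe set, the mean of a gene's probe sets, dim genes left out, robust trended moderation, array weights, 2 other scalings, the replicate number as a block, single experiments or genotypes, each mouse left out, and 3 arrays left out (wild-type mice 2 and 3 of experiment 1 and heterozygous mouse 3 of experiment 2).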

Additional observations from a re-analysis of the deposited data

Results flagged for a closer look

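In wild-type mice of experiment 1, mouse 2 lay above the other 3 and apart from them for 3 of 35 members. Its values were 11.16 log2 units for Cacnb1, 10.44 for Cacng4 and 8.23 for Scn3a. The highest values of the other mice were 10.87, 9.47 and 8.01. Each gap, as a share of the group's range, was above Dixon's 95% critical value for 4 samples. Only members were scanned, so no share over all genes can be given. Chance flags about 1 in 20 groups. Scn4b, at 11.38 in the same mouse, did not pass that rule because the other mice were themselves spread. The striatal markers of that mouse are given with the results, and their part in these values was not tested.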

How the results depend on the processing

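The counts of members past the threshold for genotype stayed at 0 under every alternative tried except array weights, which called 1 member (Cacna2d2) over both experiments and 1 in experiment 1, among 21 and 163 of all genes. The cause was not tested. With each mouse left out in turn, the counts were 0 to 0 for the genotype contrasts and the interaction and 24 to 27 for the experiment difference. Over all genes they were 0 to 2 over both experiments, 0 to 48 in experiment 1, 0 to 91 in experiment 2, 0 for the interaction and 14931 to 15594 for the experiment difference. Replicate numbers did not pair the mice, with correlations of same-numbered deviations between -0.23 and 0.22. With the replicate number as a block, 0 members passed for genotype and Cacna2d2 was -0.59 (adjusted p = 0.676). Small genotype differences over both experiments changed sign. With array weights they were 0.018 for Cacna1g and -0.040 for Scn2a. Without 3 arrays they were 0.023 for Cacnb1, 0.014 for Cacnb4, -0.066 for Scn2a, 0.018 for Scn3a and 0.015 for Scn4b. With single mice left out, they ranged from -0.0057 to 0.051 for Cacna1e, -0.073 to 0.028 for Cacna1g, -0.027 to 0.068 for Scn2a and -0.065 to 0.037 for Scn3a. Cacna1f's experiment difference was -0.0068 after quantile normalisation. Of 1036 values recomputed, 1011 kept their direction and side of the threshold, 19 changed sign, 2 became called and 4 lost their call. With 3 or 4 mice a group, members with genotype differences of a size near their SE could not be resolved, and dim members, such as Scn10a, may be close to background, for which no measure was used here.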
